A study of Mus musculus with 4 samples.

Results

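Amino acid transporters are here the genes of 8 solute carrier families (Slc1, Slc3, Slc6, Slc7, Slc15, Slc36, Slc38 and Slc43), found in the deposited gene table by their symbols. The rule took 61 of 17915 coding genes and left out 1 Slc6 row, which is not analysed here. The families held 17 (Slc6), 13 (Slc7), 11 (Slc38), 7 (Slc1), 4 (Slc15), 4 (Slc36), 3 (Slc43) and 2 (Slc3) members. A few of them carry something other than amino acids, such as serotonin, creatine, small peptides or nucleobases.

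Cells cannot make all amino acids and exchange most of them with the blood through carriers in the plasma membrane. Some carriers use the sodium gradient to concentrate an amino acid, others swap one amino acid for another, and a further set moves amino acids out of the lysosome, where their level is read by the growth kinase complex mTORC1. Endothelial cells take up arginine for nitric oxide synthesis and glutamine as a carbon and nitrogen source, and lung capillaries are known for clearing serotonin from the blood.

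The study compared lung endothelial cells of mice with the genotype Cdh5-CreER;aSMA-LSL-Dre;NR1, all given tamoxifen 5 times and all studied 6 weeks after transverse aortic constriction (TAC), a narrowing of the aorta. Cdh5-CreER is a tamoxifen-inducible recombinase driven in endothelium, and the Dre recombinase sits under the alpha smooth muscle actin gene, so that marked endothelial cells were ZsGreen+ and became tdTomato+ after any activity of that gene, however short. Bulk RNA sequencing gave 2 libraries of tdTomato+ and 2 of ZsGreen+ cells, of 17050673 to 18574737 estimated counts. There was no group without TAC, the label in each cell depends on how well both recombinases worked, and the labels used here give neither the animals' age and sex nor whether libraries came from separate or pooled mice. The titles call the libraries biological replicates without saying what a replicate was. All p-values below therefore rest on the spread between 4 libraries, and how far that spread is technical is not known.

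Levels of different genes are compared in TPM (the deposited level per transcript length, scaled to the same total in each library). Levels of 1 gene in different libraries are compared in CPM (counts put on a common depth with TMM factors). The scales are not interchangeable: in the median of the 23 expressed transporters, the TPM value per CPM was 0.87 of its mean over libraries in ZsGreen+ replicate 1 and 1.03 to 1.08 of it in the others. Fold changes come from edgeR, on the log2 scale, above 0 where tdTomato+ libraries were higher, and carry a standard error (SE).

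Acta2, the gene whose activity the recorder marks, stood at 303.9 and 527.5 CPM in tdTomato+ and at 87.6 and 82.9 CPM in ZsGreen+ libraries. All 12 endothelial markers were read in every library, with a sum of 14400 and 14100 CPM in tdTomato+ and 18500 and 15100 CPM in ZsGreen+ libraries. RNA of other cells was present too. The 10 macrophage markers summed to 5470 and 2570 CPM in tdTomato+ and 3020 and 632 CPM in ZsGreen+ libraries, the 10 fibroblast markers to 258 and 462 against 119 and 133 CPM, and the 10 alveolar type 2 markers to 496 and 579 against 355 and 209 CPM. Of the 7 lymphatic markers, 6 were lower in both tdTomato+ libraries and summed to 211 and 165 against 534 and 637 CPM. Lyve1, which some macrophages also make, was the exception and the most abundant, at 503 and 840 against 407 and 593 CPM. With Lyve1 included, the 7 markers summed to 713 and 1000 against 942 and 1230 CPM, and the groups overlapped. Lymphocyte markers stayed at 3.89 to 18.9 CPM, neutrophil and monocyte markers at 37.4 to 89.2 CPM, smooth muscle and pericyte markers at 27.8 to 45.9 CPM, alveolar type 1 markers at 26.9 to 65.3 CPM and platelet and erythroid markers at 37 to 60 CPM. Airway markers summed to 405 CPM in ZsGreen+ replicate 2, mostly Scgb1a1, and to 18.7 to 59.9 CPM in the other libraries, with Krt5, Trp63 and Muc5b at 0 in all of them. A low transporter level can therefore come from cells other than endothelium, and a difference in bulk RNA can be a difference in the number of cells of a type or in RNA per cell, which cannot be told apart.

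Of the 61 transporters, 23 were expressed, taken as 1 TPM or more in all 4 libraries. That is 37.7% of them, against 60.8% of all coding genes. Another 10 reached 1 TPM in some libraries, 18 had counts but stayed below 1 TPM everywhere, and 10 were listed at 0. A count of 0 allows up to 3 counts in a library, or 0.162 to 0.176 CPM, for counting error only. All 3 Slc43 genes were expressed, as were 5 of 11 Slc38, 5 of 13 Slc7, 2 of 4 Slc15, 2 of 4 Slc36, 2 of 7 Slc1, 1 of 2 Slc3 and 3 of 17 Slc6 genes. The Slc6 family also held 7 of the 10 genes at 0.

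The order of levels was led by Slc3a2 at 585 ± 27.9 TPM and Slc43a3 at 323 ± 30.7 TPM (SD, n = 4 libraries of both groups). Together these 2 genes gave 63.9% to 70.3% of the summed TPM of all 61. Slc6a6 (91.3 ± 32.8 TPM), Slc38a2 (67.6 ± 16.9 TPM) and Slc38a10 (63.9 ± 5.61 TPM) came next, and then Slc7a7 at 32.8 ± 2.28 TPM. Between neighbours in the order of the 23 genes, the ranges over the libraries overlapped in 18 of 22 pairs. The 4 steps without overlap were from Slc3a2 to Slc43a3, from Slc43a3 to Slc6a6, from Slc38a10 to Slc7a7 and from Slc38a7 (12.4 ± 1.56 TPM) to Slc1a4 (5.46 ± 1.67 TPM). From Slc7a7 down to Slc38a7 lay 10 genes whose neighbours all overlapped, although the ranges of 16 of their 45 pairs did not; Slc7a7 lay wholly above 7 of the other genes. The summed TPM of all members was 1382.2 and 1368.1 in tdTomato+ and 1307.3 and 1434.1 in ZsGreen+ libraries, with overlapping groups.

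**Figure D1:**
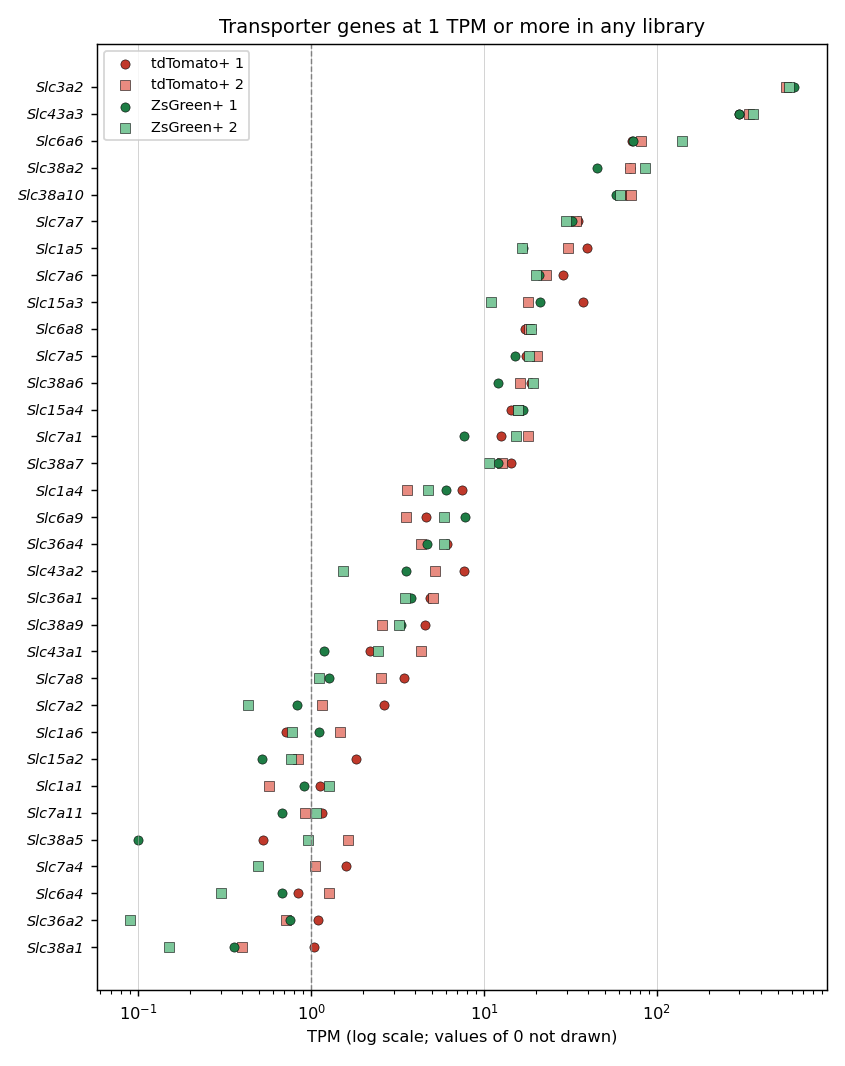
TPM on a log axis of the 33 transporter genes that reached 1 TPM in any library, 1 point per library, with red for tdTomato+ and green for ZsGreen+ cells and a dashed line at 1 TPM. Slc3a2 and Slc43a3 stand above all others in each of the 4 libraries, and the genes from Slc7a2 downward cross the line or lie around it.

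Slc3a2 is the CD98 heavy chain, a glycoprotein that carries a light chain of the Slc7 family to the cell surface. It stood at 585.44 and 555.21 TPM in tdTomato+ and at 622.21 and 577.6 TPM in ZsGreen+ libraries. The groups overlapped in CPM (722 and 720.8 against 931.4 and 721.1), with a log2 fold change of -0.20 (SE 0.21, edgeR adjusted p = 0.89). Slc3a2 (NCBI Gene 17254) lies on chromosome 19 of GRCm38 at 8706882 to 8723369, and its counts were not whole in any library, so part of its reads were shared with other features.

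Of its 6 light chains in the table, Slc7a7 and Slc7a6, which exchange cationic for neutral amino acids (system y+L), were the most abundant. Slc7a7 gave 40.9% to 45.9% and Slc7a6 28.1% to 33.4% of the summed light chain TPM, and Slc7a5 gave 20.3% to 25.7%. Exons of Oxa1l on the opposite strand cover 7.0% of the exon bases of Slc7a7, whose counts were also not whole in any library. Without a stated strand setting, reads of Slc7a7 and Oxa1l cannot be told apart there. Slc7a5 (LAT1), which brings in leucine and other large neutral amino acids, stood at 17.39 and 20.36 TPM in tdTomato+ and at 15.1 and 18.23 TPM in ZsGreen+ libraries. It had a log2 fold change of 0.04 (SE 0.20, edgeR adjusted p = 0.982), and the groups overlapped. Slc7a7 stood at 34.94 and 34.19 against 32.13 and 29.86 TPM and Slc7a6 at 28.56 and 22.75 against 20.78 and 19.94 TPM. In CPM the groups overlapped for both, at 38.5 and 38.7 against 44.7 and 35.8 CPM for Slc7a7 and 63.5 and 53.3 against 56.9 and 46.3 CPM for Slc7a6.

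The light chains summed to 85.5 and 80.8 TPM in tdTomato+ and to 70.0 and 70.9 TPM in ZsGreen+ libraries. TPM is not the scale used here to compare libraries, so this is no difference between groups. In CPM the groups overlapped for every light chain except the low Slc7a8. Within each library, heavy chain TPM exceeded the summed light chain TPM 6.85 and 6.87 times in tdTomato+ and 8.89 and 8.15 times in ZsGreen+ libraries. The groups do not overlap in this ratio, which was chosen after other values of these genes were known. With 2 against 2 libraries an exact two-sided permutation test cannot go below p = 0.333, so no test of it is given.

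**Figure D2:**
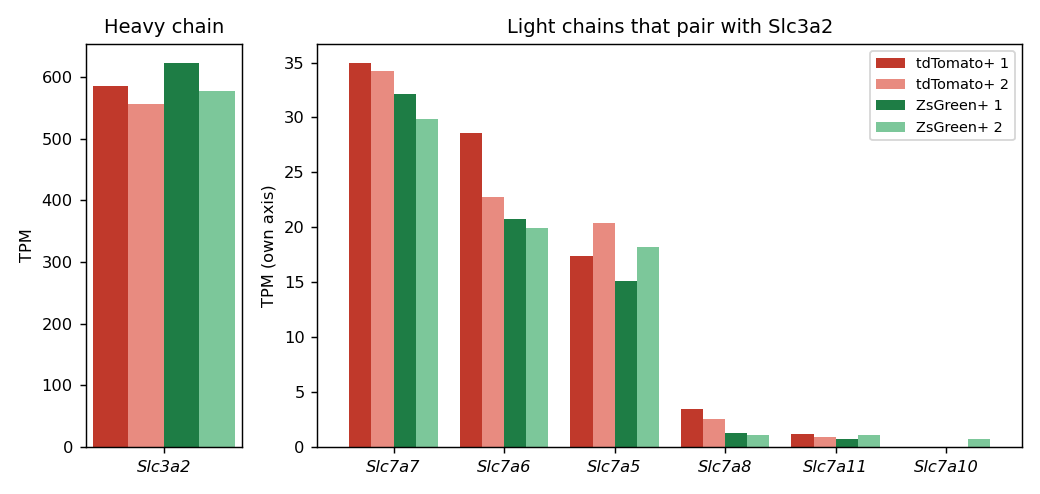
TPM of the heavy chain Slc3a2 (left) and, on an axis of its own, of its 6 light chains (right), 1 bar per library. Slc3a2 stands at 555.21 to 622.21 TPM, while no light chain passes 34.94 TPM and Slc7a10 is above 0 only in ZsGreen+ replicate 2, at 0.68 TPM.

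Slc7a8 (LAT2), the second light chain of system L, was low and stood higher in both tdTomato+ libraries, at 3.46 and 2.54 TPM against 1.27 and 1.11 TPM. Its counts were 134 and 110 against 45 and 47. The log2 fold change was 1.28 (SE 0.40), which did not pass edgeR's test over all genes (adjusted p = 0.37). The remaining heavy chain, Slc3a1, had at most 2.43 counts, and its usual partner Slc7a9 was not analysed here.

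Slc7a11 (xCT), which imports cystine for glutathione in exchange for glutamate, lay at the edge of expression. It stood at 1.15 and 0.92 TPM in tdTomato+ and at 0.68 and 1.06 TPM in ZsGreen+ libraries, with a log2 fold change of 0.15 (SE 0.37, edgeR adjusted p = 0.966). The groups overlapped. Slc7a11 is a textbook target of ATF4, the transcription factor of the amino acid response, which binds composite elements with the letters TGATGNAA. These letters were searched on both strands in RefSeq promoter windows of GRCm38.p6, from 250 bases before to 50 bases after each start site. Windows were found for 44 of the 61 members, and 4 of these (9.09%) had a match in some window, against 4.51% of all genes with a window. The members were Slc7a11, Slc7a7, Slc1a4 and Slc6a21. Slc7a11 had 2 matches, on opposite strands. Slc7a7 also had 2, both on its own strand; the one not shown has the letters TGATGCAA of the Slc7a11 element, at chr14:54417938-54417945, across 1 listed start site and upstream of another. The stretches around the other matches in both light chains are shown 5′ to 3′ on the gene's strand (minus for both), with the matching letters in capitals, because these genes take cystine and cationic amino acids with the same heavy chain and had very different RNA levels. They lie upstream of a listed start site at chr3:50443632-50443719 and chr14:54418038-54418125 and overlap no exon of the GENCODE annotation.
Slc7a11: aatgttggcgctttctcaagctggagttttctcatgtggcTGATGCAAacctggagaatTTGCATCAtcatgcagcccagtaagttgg
Slc7a7: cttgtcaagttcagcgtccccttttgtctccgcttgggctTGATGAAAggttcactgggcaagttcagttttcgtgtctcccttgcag
A match is a description of the letters only. Slc7a11 had a mean of 0.953 TPM and Slc7a7 of 32.8 TPM, and whether the matches bear on these levels was not tested.

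Arginine and lysine enter cells through the system y+ carriers. Slc7a1 (CAT1) had the most RNA of them, at 12.51 and 17.92 TPM in tdTomato+ and at 7.61 and 15.32 TPM in ZsGreen+ libraries. The groups overlapped, and the fitted log2 fold change came to 0.26 (SE 0.30, edgeR adjusted p = 0.9). Slc7a2 (CAT2), which activated macrophages also use, was under 1 TPM in both ZsGreen+ libraries, at 0.83 and 0.43 TPM, and stood at 2.65 and 1.16 TPM in tdTomato+ libraries. It had a log2 fold change of 1.41 (SE 0.56, edgeR adjusted p = 0.538), which was 0.72 without tdTomato+ replicate 1 and 2.12 without ZsGreen+ replicate 1. Slc7a1 RNA exceeded Slc7a2 RNA 4.72 and 15.4 times in tdTomato+ and 9.17 and 35.6 times in ZsGreen+ libraries. The third y+ carrier, Slc7a3, did not pass 0.66 TPM.

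Glutamine and small neutral amino acids are carried by the ASC exchangers and by Slc38. Slc1a5 (ASCT2), which exchanges glutamine for other small neutral amino acids, had the smallest p of all members tested. It stood at 39.62 and 30.61 TPM in tdTomato+ and at 16.78 and 16.62 TPM in ZsGreen+ libraries. Both tdTomato+ libraries lay above both ZsGreen+ libraries also in CPM (62.7 and 50.8 against 32.8 and 27.6), a 1.88-fold difference (log2 fold change 0.91, SE 0.21). It did not pass edgeR's test over all genes (adjusted p = 0.201), while DESeq2 gave an adjusted p of 0.0335. Over all alternatives run the adjusted p of Slc1a5 went from 0.0014 to 1. Slc1a5 (NCBI Gene 20514) lies on chromosome 7 at 16781334 to 16798274. Its relative Slc1a4 (ASCT1), an exchanger of alanine, serine and cysteine, stood at 7.47 and 3.59 against 6.04 and 4.73 TPM, with overlapping groups. Slc1a5 exceeded Slc1a4 5.3 and 8.53 times in tdTomato+ and 2.78 and 3.51 times in ZsGreen+ libraries.

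The sodium-coupled glutamate carriers of the same family were low. Of Slc1a1, Slc1a2, Slc1a3, Slc1a6 and Slc1a7, none reached 1 TPM in all libraries, and the highest single values were 1.47 TPM (Slc1a6) and 1.27 TPM (Slc1a1).

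Slc38a2 (SNAT2), a sodium-coupled carrier of glutamine and alanine, was the leading Slc38 gene beside Slc38a10, an intracellular member that is little studied. Slc38a2 stood at 69.77 and 69.86 TPM in tdTomato+ and at 44.83 and 85.79 TPM in ZsGreen+ libraries. The ZsGreen+ libraries thus held both the lowest and the highest value, and the log2 fold change came to -0.02 (SE 0.25, edgeR adjusted p = 0.992), with a sign that turns under several alternatives. Slc38a10 stood at 66.21 and 70.5 against 57.76 and 61.13 TPM, and in CPM its groups overlapped (158.5 and 173.7 against 177.5 and 156.3). Slc38a7, a lysosomal glutamine exporter, ranged from 10.63 to 14.37 TPM, Slc38a6 from 11.99 to 19.06 TPM, and Slc38a9, the lysosomal arginine sensor upstream of mTORC1, from 2.57 to 4.58 TPM.

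The other system A genes were under or near 1 TPM. Slc38a1 (SNAT1) stood at 1.04 and 0.4 against 0.36 and 0.15 TPM (log2 fold change 1.37, SE 0.72, edgeR adjusted p = 0.704). This was 0.58 without tdTomato+ replicate 1 and 2.27 without ZsGreen+ replicate 1. Slc38a4 (SNAT4) was the member with the largest fitted fold, 7.2-fold lower in tdTomato+ libraries (log2 fold change -2.85, SE 0.79, edgeR adjusted p = 0.29). This rests on 6 and 3 counts against 21 and 41 counts. On the log2 scale it was -3.45 without tdTomato+ replicate 1 and -2.40 without tdTomato+ replicate 2. The level of Slc38a4 did not pass 0.95 TPM in any library. The system N genes Slc38a3 and Slc38a5 were below 1 TPM in at least 3 of 4 libraries.

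Of the Slc43 family, Slc43a3 carries purine nucleobases, while Slc43a1 (LAT3) and Slc43a2 (LAT4) let large neutral amino acids pass down their gradient. Slc43a3 stood at 297.92 and 341.8 TPM in tdTomato+ and at 296.67 and 356.88 TPM in ZsGreen+ libraries, with a log2 fold change of -0.18 (SE 0.19). In CPM, both tdTomato+ libraries (435.4 and 525) lay just under both ZsGreen+ libraries (538.9 and 546.7). Slc43a2 stood at 7.69 and 5.17 against 3.52 and 1.53 TPM, with no overlap between groups and a log2 fold change of 0.99 (SE 0.43, edgeR adjusted p = 0.59). This was 1.74 without ZsGreen+ replicate 1 and 0.49 without ZsGreen+ replicate 2. Slc43a1 was at 2.18 and 4.32 against 1.18 and 2.43 TPM, with overlapping groups and a log2 fold change of 0.66 (SE 0.56).

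The Slc6 family couples uptake to sodium and chloride, and only its carriers of taurine, creatine and glycine were expressed among the members. Slc6a6 (TauT), which takes up taurine, stood at 71.55 and 80.43 TPM in tdTomato+ and at 73.08 and 140.22 TPM in ZsGreen+ libraries, the last being the high one. In CPM the groups did not overlap (263 and 310.5 against 331.7 and 539.4), with a log2 fold change of -0.60 (SE 0.27, edgeR adjusted p = 0.593). The fold change of Slc6a6 was -0.91 without ZsGreen+ replicate 1 and -0.21 without ZsGreen+ replicate 2. The latter library had the most airway and the least macrophage marker RNA, and the part of either was not tested. Slc6a8, the creatine carrier, ranged from 17.2 to 18.71 TPM. In CPM both tdTomato+ libraries lay under both ZsGreen+ libraries (39.9 and 44.5 against 53.7 and 45.5), with a log2 fold change of -0.23 (SE 0.19, edgeR adjusted p = 0.841). Slc6a9 (GlyT1), which takes up glycine, was lower in both tdTomato+ libraries, at 8.58 and 6.83 against 18 and 11.7 CPM (log2 fold change -0.94, SE 0.33, edgeR adjusted p = 0.453). Exons of Ccdc24 on the opposite strand cover 27.8% of the exon bases of Slc6a9, and without a stated strand setting reads of both cannot be told apart there.

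Slc6a4 (SERT), through which lung endothelium takes up serotonin, was low but had counts in every library. It had 24 and 40 counts in tdTomato+ and 21 and 9 counts in ZsGreen+ libraries, or 0.84 and 1.27 against 0.68 and 0.3 TPM. The groups overlapped in CPM (1.32 and 2.1 against 1.33 and 0.49), with a log2 fold change of 0.91 (SE 0.73, edgeR adjusted p = 0.835). This was 1.78 without ZsGreen+ replicate 1 and 0.36 without ZsGreen+ replicate 2. Of the other Slc6 members, Slc6a14 was the highest with at most 0.45 TPM. The glycine carrier Slc6a5 and the neutral amino acid carrier Slc6a19 were among those at 0.

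Of the peptide carriers of Slc15 and the proton-coupled carriers of Slc36, 2 of 4 each were expressed. Slc15a4, which exports histidine and small peptides from endolysosomes, stood at 14.31 to 16.72 TPM, and at 22.2 and 25.8 against 32.4 and 25.7 CPM. Slc15a3, its relative known from macrophages and dendritic cells, varied more, at 37.23 and 18.06 against 20.94 and 10.99 TPM, with overlapping groups and a log2 fold change of 0.59 (SE 0.45). Exons of Tmem132a on the opposite strand cover 28.1% of the exon bases of Slc15a3, with the same limit as for Slc6a9. Slc36a1 (PAT1), which moves small amino acids out of lysosomes, stood at 4.89 and 5.05 against 3.79 and 3.48 TPM, and Slc36a4 (PAT4), a carrier of proline and tryptophan, ranged from 4.34 to 6.07 TPM. The plasma membrane peptide carriers Slc15a1 and Slc15a2 did not pass 0.18 and 1.81 TPM, Slc36a2 ranged from 0.09 to 1.09 TPM, and Slc36a3 was at 0.

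No transporter passed edgeR's quasi-likelihood test over all 13177 genes (called at an adjusted p under 0.05), where 40 genes or 0.304% were called. The lowest adjusted p among the 37 members tested was 0.201. The other 24 members had too few counts to be tested. At an unadjusted p under 0.05 there were 5 of 37 (13.5%), against 8.77% of all genes tested. DESeq2 called 1 member, Slc1a5, against 2.44% of its genes, and limma on log2 TPM called none. The groups did not overlap in CPM for 9 higher members (24.3%, against 19.9% of all genes) and 5 lower members (13.5%, against 18.2%). The median log2 fold change was 0.08 over the 37 members and -0.01 over all genes. Among the 23 expressed members, 16 had fitted changes under 0.5 on the log2 scale in either direction. The 7 at or above it were Slc7a8, Slc43a2, Slc1a5, Slc43a1 and Slc15a3 on the higher side and Slc6a6 and Slc6a9 on the lower.

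**Figure D3:**
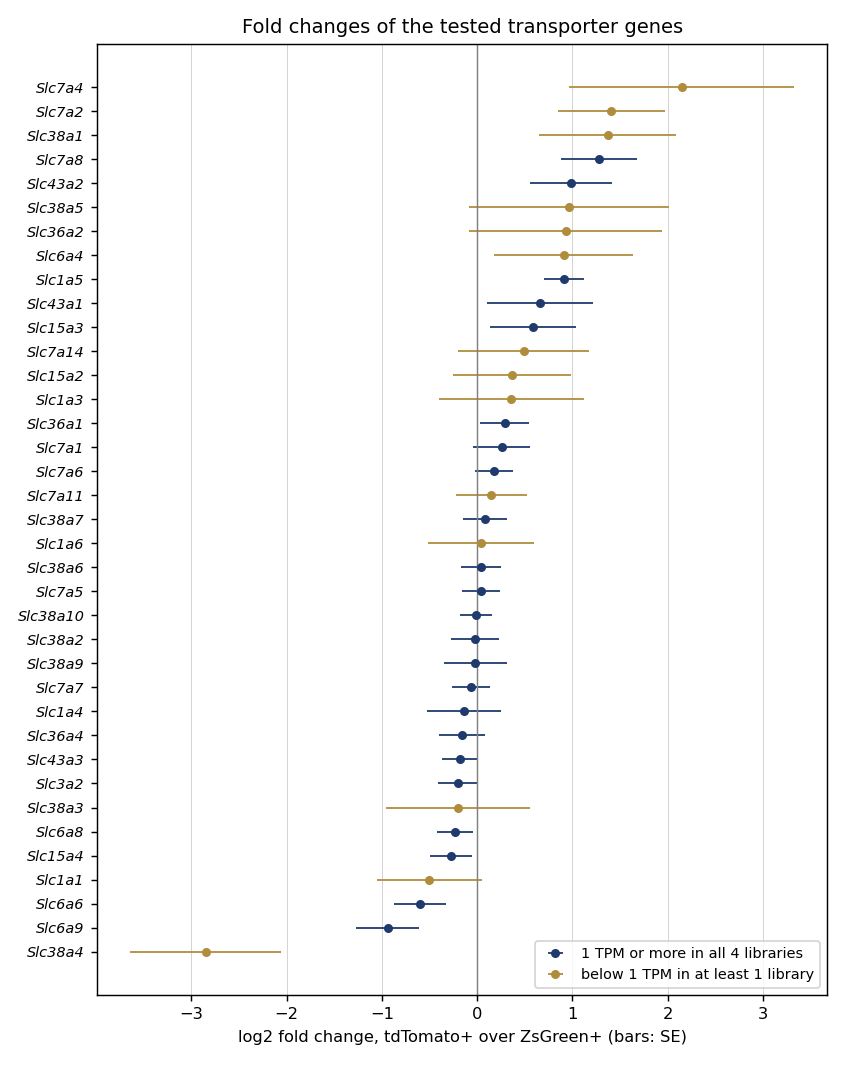
Log2 fold change (tdTomato+ over ZsGreen+) of the 37 tested transporters from edgeR, with bars of 1 SE, in blue for genes at 1 TPM or more in all libraries and in ochre for the others. Most expressed genes lie near 0, Slc1a5 (0.91, SE 0.21) and Slc7a8 (1.28, SE 0.40) lie to the right, and the widest bars belong to low genes such as Slc7a4.

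Macrophage marker RNA differed between the libraries, and some transporters of this set are known from macrophages. The marker sum ran from tdTomato+ replicate 1 (5470 CPM) through ZsGreen+ replicate 1 (3020 CPM) and tdTomato+ replicate 2 (2570 CPM) to ZsGreen+ replicate 2 (632 CPM). Slc15a3 had this order, at 49.4, 34.4, 25.2 and 15.3 CPM. Slc7a2 and Slc43a2 were also highest in tdTomato+ replicate 1 (12.4 and 23.5 CPM) and lowest in ZsGreen+ replicate 2 (2.08 and 5.97 CPM), but with tdTomato+ replicate 2 above ZsGreen+ replicate 1. The same held for Slc1a5 and Slc7a8. Exactly the macrophage order was found in 3 of 37 tested members (Slc7a6, Slc36a2 and Slc15a3, 8.11%) and in 5.34% of all genes tested, and 5 of the 10 macrophage markers had it themselves. The part of macrophage RNA in these transporter values was not tested.

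Of the 7 lymphatic markers, 6 were lower in both tdTomato+ libraries. The sum of all 7 overlapped between groups, because Lyve1 was the most abundant and went the other way. Thy1 (7.32 and 9.24 against 57.6 and 71.3 CPM), Mmrn1 (15.8 and 11.7 against 74.5 and 161 CPM) and Reln (4.29 and 5.72 against 28.9 and 63 CPM) were among the 40 genes that edgeR called, with log2 fold changes of -2.96 (SE 0.24, adjusted p = 0.0304), -3.10 (SE 0.39, adjusted p = 0.0432) and -3.20 (SE 0.41, adjusted p = 0.0465). Prox1, Flt4 and Pdpn were lower in both tdTomato+ libraries without being called, and Lyve1 overlapped. The median log2 fold change of the 7 was -2.03, against -0.01 over all genes. Of the tested transporters, 5 were lower in both tdTomato+ libraries (Slc43a3, Slc6a6, Slc6a8, Slc6a9 and Slc38a4). That is 13.5%, against 18.2% of all genes tested. They were picked by this direction, so sharing it with the markers is not a result. Stc2 and Htr2b of the surrounding gene lists were lower too, as were Atf5, Asns, Lamtor5 and others, while Nupr1 and Nos3 were among those higher. The part of lymphatic RNA in these values was not tested.

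**Figure D4:**
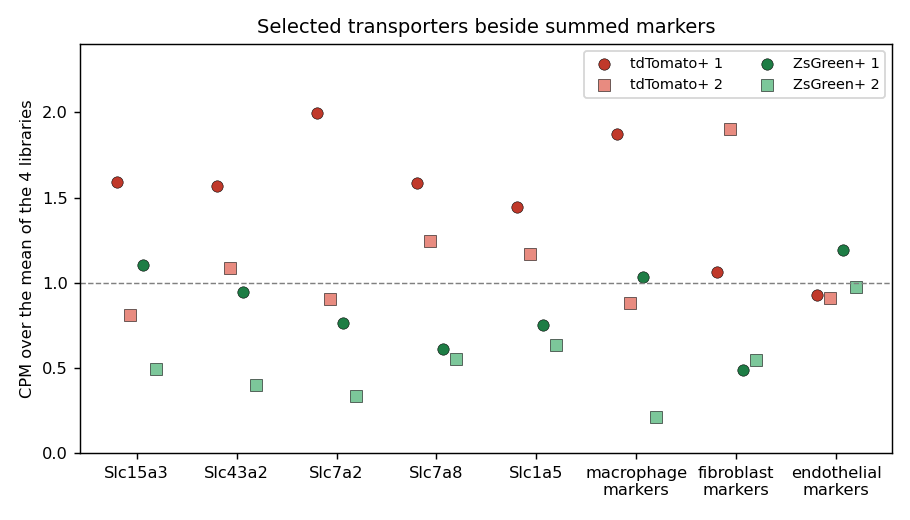
CPM of 5 transporters and summed CPM of the macrophage, fibroblast and endothelial marker lists in each library, each divided by its mean over the 4 libraries. Slc15a3 shows the library order of the macrophage markers, while both tdTomato+ libraries lie above both ZsGreen+ libraries for Slc43a2, Slc7a2, Slc7a8, Slc1a5 and the fibroblast markers. The 5 transporters were chosen with their values known, so this separation is not a result. Of all genes tested, 19.9% were also higher in both tdTomato+ libraries. The summed alveolar type 2 markers, not drawn here, were higher in both as well.

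Genes around the transporters, in 7 lists of 144 genes of which 142 are in the table and 120 were tested, likewise held no gene that edgeR called. DESeq2 called 3 of 123 of them (2.44%, the same share as over all its genes), Nupr1, Nos3 and Htr2b. At an unadjusted p under 0.05 edgeR gave 10 (8.33%, against 8.77% of all genes tested). For other amino acid carriers the median log2 fold change was 0.10, from 13 tested genes. In that list the mitochondrial glutamate carrier Slc25a22 (0.67, SE 0.21), the mitochondrial serine carrier Sfxn1 (0.60, SE 0.22) and the aromatic amino acid carrier Slc16a10 (1.26, SE 0.55) stood higher in both tdTomato+ libraries, and Slc25a29, a mitochondrial carrier of basic amino acids, was at -0.65 (SE 0.52). Slc16a10 was at 1.96 without ZsGreen+ replicate 1 and at 0.78 without ZsGreen+ replicate 2. Slc25a29 was at -0.05 without ZsGreen+ replicate 1 and at -1.46 without tdTomato+ replicate 1.

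The amino acid response around ATF4 had a median of -0.06 over 27 tested genes, 8 above and 19 below 0, against a median of -0.01 over all genes. In CPM, 9 of the 27 were lower and 1 was higher in both tdTomato+ libraries, against 18.2% and 19.9% of all genes tested. These counts were not tested. Nupr1, a stress-induced chromatin protein, was at 58 and 39.4 CPM in tdTomato+ and at 21.3 and 15.6 CPM in ZsGreen+ libraries (log2 fold change 1.40, SE 0.27, edgeR adjusted p = 0.144). DESeq2 gave Nupr1 an adjusted p of 0.00113, and the alternatives as a whole 5.43e-07 to 0.646. Below 0, and also not called, were the secreted Stc2 at -2.57 (SE 0.83; -1.42 without ZsGreen+ replicate 2 and -3.20 without ZsGreen+ replicate 1), the transcription factor Atf5 at -0.59 (SE 0.23) and asparagine synthetase, Asns, at -0.40 (SE 0.17).

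Genes of amino acid sensing by mTORC1 had a median of -0.07 over 31 tested genes, 8 above and 23 below 0. In CPM, 6 of the 31 were lower and 2 were higher in both tdTomato+ libraries, against 18.2% and 19.9% of all genes tested. These counts were not tested either. The Ragulator subunits Lamtor5 (-0.35, SE 0.16), Lamtor4 (-0.39, SE 0.23) and Lamtor1 (-0.33, SE 0.23) and folliculin, Flcn (0.24, SE 0.18), had the smallest p. Glutathione synthesis had a median of -0.03 over 11 genes, with the lipid peroxide reductase Gpx4 at -0.39 (SE 0.22), the regulators Nfe2l2 at 0.24 (SE 0.18) and Keap1 at -0.13 (SE 0.17), and cysteine dioxygenase, Cdo1, at 0.38 (SE 0.51). Besides these, 1 gene of the list with a mean under 1 CPM was higher in tdTomato+ libraries, at an unadjusted edgeR p under 0.05. Breakdown of branched-chain amino acids had a median of -0.08 over 7 genes, with Bckdha (-0.33, SE 0.22), Bcat2 (-0.22, SE 0.21), Bckdk (-0.16, SE 0.21) and Dbt (0.15, SE 0.34).

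Enzymes that use arginine and glutamine had a median of -0.01 over 21 genes. Nos3, which makes nitric oxide from arginine, was at 83.05 and 127.01 TPM in tdTomato+ and at 35.93 and 54.32 TPM in ZsGreen+ libraries (log2 fold change 1.09, SE 0.27, edgeR adjusted p = 0.231). DESeq2 gave Nos3 an adjusted p of 0.00925, and the alternatives as a whole 5.28e-05 to 0.919. For Slc7a1, the arginine carrier described above, the groups overlapped. Ornithine aminotransferase, Oat, was at 0.80 (SE 0.32), arginase 2, Arg2, at 1.17 (SE 0.49), and Ddah1, which degrades an inhibitor of nitric oxide synthase, at -0.39 (SE 0.18). Genes that handle serotonin, GABA and creatine had a median of -0.16 over 10 genes. The serotonin receptor Htr2b was lower in both tdTomato+ libraries, at 3.34 and 2.31 against 6.29 and 8.34 TPM (log2 fold change -1.41, SE 0.35, edgeR adjusted p = 0.231), and DESeq2 gave Htr2b an adjusted p of 0.0438, and the alternatives as a whole 0.00243 to 0.95. Gatm, which makes a creatine precursor, was at 1.80 (SE 0.72; 0.60 without tdTomato+ replicate 2 and 2.45 without tdTomato+ replicate 1), the creatine kinase Ckb at -0.83 (SE 0.38) and monoamine oxidase A, Maoa, at -0.35 (SE 0.18).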

How the data were processed

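Per the labels' protocols, RNA from the RNeasy Micro kit went through whole transcriptome amplification into libraries for MGI sequencers; no molecular identifiers are named. The submitters' processing notes name RSEM 1.3.1, DESeq2 1.4.5, mm10 and GRCm38; for the aligner and strand setting, none was stated in the sources used here. The deposited estimated counts are per gene and not whole for 10 of the members in some library; they were rounded. The deposited TPM and FPKM values were scaled by the authors, as was the deposited normalized count, a signal; of these only TPM was used.

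edgeR 4.0.16 under R 4.3.3 fitted all genes (filterByExpr, minimum count 10; TMM; quasi-likelihood F-test; Benjamini-Hochberg over 13177 genes; SE from fold change and F), tested first on simulated data. Tried besides were DESeq2 1.42.0, RLE or upper quartile factors, other filters, leaving out each library, a replicate block, and limma 3.58.1 with trend on log2(TPM + 1) and log2(TPM + 0.1). The members and lists were chosen with earlier results of these data known. Named with folds are the 8 members with the smallest p, 6 fixed ones and up to 4 genes per list. All expressed members are named, those outside these sets with a fold in some cases only. Slc7a10, Slc3a1, Slc6a14, other low members and single lymphatic and airway markers were named after their values were seen. The values of 1 member are not reported here.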

Additional observations from a re-analysis of the deposited data

How the results depend on the processing

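The count of members called, 0 with edgeR, was 1 with DESeq2 and 6 with the replicate block (Slc1a5, Slc7a8, Slc7a2 and Slc43a2 higher, Slc6a9 and Slc38a4 lower) and stayed 0 under the other alternatives, leaving out any library included. The titles call the libraries biological replicates but do not say whether libraries of the same number share mice, day or sort. The replicate 1 libraries deviated from their group means with a correlation of 0.45 over 13177 genes. With 2 libraries per group the deviations of replicate 2 mirror these, so this is 1 comparison and not 2. The count over all genes went from 40 to 330 with DESeq2, 128 without a filter, 934 with the replicate block (7.09% of genes) and 22 with limma on log2(TPM + 0.1), and from 4 to 304 without 1 library (4 without tdTomato+ replicate 2, 304 without ZsGreen+ replicate 1). Members of the surrounding lists called went from 0 to 3 with DESeq2, 1 without a filter and 7 with the replicate block, and from 0 to 1 without 1 library. Expressed members were 23, and 15 at a minimum of 5 TPM, 27 at 0.5 TPM, 28 at 1 TPM in at least 2 libraries and 31 at 10 counts in all libraries. The TPM scale moved the median of all genes to 0.12 and 0.13 on the log2 scale. Against that, the log2 fold change of Slc38a2 turned to 0.17 and 0.17 with limma, and to 0.02 with upper quartile factors and 0.02 with the replicate block; that of Keap1 turned to 0.0 and 0.0 with limma. Without 1 library the log2 fold changes ran from -0.33 to 0.37 for Slc38a2, from -0.10 to 0.18 for Slc7a5, from -0.37 to 0.0 for Slc3a2, from -0.01 to 0.32 for Slc7a11, from -0.07 to 0.68 for Slc7a1, from -0.61 to 0.0 for Lamtor1, from -0.43 to 0.02 for Bcat2, from -0.34 to 0.05 for Bckdk and from -0.04 to 0.36 for Dbt. They stayed at 0.75 to 1.08 for Slc1a5 and 1.09 to 1.46 for Slc7a8. Leaving out 1 library moved the fold by over 1.5 times for 5 of 14 members followed (Slc7a2 0.72 to 2.12, Slc38a1 0.58 to 2.27, Slc43a2 0.49 to 1.74, Slc6a4 0.36 to 1.78, Slc38a4 -3.45 to -2.40) and 4 of 28 list genes (Gatm, Slc16a10, Slc25a29 and Stc2). The cause of these changes was not tested.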
